A study of Mus musculus with 8 samples.

Results

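The genes described here are 10 mouse genes that mark disease-associated microglia or lie at Alzheimer's disease risk loci in humans: Apoe, Trem2, Tyrobp, Cst7, Lpl, Spp1, Gpnmb, Cd9, Bin1 and Cd33. They were found by gene symbol among the 32285 genes of the files, from a list of names that sets no threshold on a measured value. CD45.2+ cells had been sorted from the brains of 16-week-old mice and sequenced in droplets, as 8 libraries, 1 for each of 4 treatments in WT (C57BL/6J) animals and of App NL-G-F animals. App NL-G-F mice are knock-ins whose own App gene carries a humanized Aβ stretch with the Swedish, Arctic and Iberian mutations. Control mice drank water, acute colitis was brought on by 2% dextran sulfate sodium (DSS) for 1 week, and chronic colitis by 3 cycles of 2% DSS and then water, 5 days each. Food allergy mice were sensitized to ovalbumin with alum and then fed ovalbumin. Male and female mice were used in the study, without the sexes of any library being given, and each library pooled cells under up to 4 hashtag antibodies, and which mouse a hashtag marks is not given in the sources used here.

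Between 4869 and 7199 cells a library were kept, with 25610029 to 54618574 unique molecular identifiers (UMIs, the count of distinct captured transcripts) in them. A total of 46065 of 49973 cells fell in 26 types, which were named from marker lists, so that each name stands for cells like that type. Levels below are CPM, a gene's UMIs in a cell type of a library scaled to a total of 1e6 UMIs, and any 4 library values run from control through acute and chronic colitis to food allergy. Immediate-early genes split the hashtag groups into a low and a high set, 2.35-fold apart at the gap, and both sets occurred in every library. Pairs of libraries shared 34 to 72 cell barcodes, where chance gives 36 to 68.

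Microglia are the resident macrophages of the brain parenchyma, and near amyloid plaques they lower their homeostatic genes and raise a set of lipid-handling and lysosomal genes. TREM2 is a lipid-sensing receptor on these cells that signals through the adaptor TYROBP, and APOE, the main lipid carrier of the brain, is among the ligands it binds. CST7 (cystatin F, an inhibitor of cathepsins), LPL (lipoprotein lipase), SPP1 (osteopontin), GPNMB (a lysosomal glycoprotein) and CD9 (a tetraspanin) are products of that program. CD33 is an inhibitory sialic acid receptor of myeloid cells, and BIN1 is a membrane-bending protein, both known from human risk loci.

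In the GRCm38 annotation (GENCODE vM21) all members are protein-coding genes. Apoe lies at chr7:19696109-19699188 on the minus strand, Trem2 at chr17:48346401-48354147 on the plus strand, Tyrobp at chr7:30413760-30417585 on the plus strand and Cst7 at chr2:150570415-150578944 on the plus strand. Lpl lies at chr8:68880491-68907448 (plus), Spp1 at chr5:104435118-104441050 (plus), Gpnmb at chr6:49036546-49070929 (plus), Cd9 at chr6:125460266-125494791 (minus) and Cd33 at chr7:43524216-43544428 (minus). The stretches of 150 bases just before the RefSeq start sites (GRCm38.p6) of Trem2, Cst7, Spp1 and Apoe are shown because these members were, respectively, found in nearly all microglia, in part of them, mainly in neutrophils and mainly in macrophages. Capitals mark GAGGAA or its reverse complement TTCCTC, the core that the myeloid factor PU.1 prefers. The stretches are Trem2 chr17:48346251-48346400 (plus), Cst7 chr2:150570265-150570414 (plus), Spp1 chr5:104434961-104435110 (plus) and Apoe chr7:19699189-19699338 (minus).
Trem2: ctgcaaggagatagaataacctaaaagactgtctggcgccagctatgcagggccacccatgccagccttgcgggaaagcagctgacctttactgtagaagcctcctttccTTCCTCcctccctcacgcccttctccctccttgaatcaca
Cst7: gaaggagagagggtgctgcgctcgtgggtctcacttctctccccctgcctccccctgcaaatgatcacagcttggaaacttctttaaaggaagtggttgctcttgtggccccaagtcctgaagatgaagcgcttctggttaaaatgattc
Spp1: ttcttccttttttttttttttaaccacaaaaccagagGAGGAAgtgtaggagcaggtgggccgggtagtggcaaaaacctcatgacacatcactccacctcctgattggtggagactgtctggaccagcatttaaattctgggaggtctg
Apoe: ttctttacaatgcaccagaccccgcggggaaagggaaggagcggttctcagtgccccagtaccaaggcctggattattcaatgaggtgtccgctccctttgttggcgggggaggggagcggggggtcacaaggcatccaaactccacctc
A RefSeq window was given for 7 of the 10 members, 10 windows in all, and 5 of these windows held the letters GAGGAA or TTCCTC within their 250 upstream bases. Of 32851 such windows of all genes, 7639 (23.3%) held them. The match lies nearer to the start in Trem2 than in Spp1, and in the Apoe window it lies further upstream than the bases shown.

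Each member had its own order of cell types (22 types with at least 20 cells in at least 6 libraries). Microglia, fibroblasts, migratory dendritic cells and choroid plexus epithelium had too few cells and are left out of these orders. Apoe stood highest in Mrc1-high macrophages, which are macrophages of the brain borders, at 19591 ± 2815 CPM (SD, n = 8 libraries), where 99.7% of 1062 cells held an Apoe UMI. MHC class II-high macrophages followed at 11285 ± 2216 CPM (n = 8), mast cells at 3843 ± 374 CPM (n = 7) and monocytes at 2414 ± 1429 CPM (n = 8). Monocytes thus had a high but uneven Apoe level. Basophils stood at 907 ± 267 CPM (n = 6) and B cells at 381 ± 192 CPM (n = 8), while ILC2 and CD8 T cells had 19.7 and 23.9 CPM. Of all Apoe UMIs in typed cells, 37.2% were in Mrc1-high and 27.2% in MHC class II-high macrophages, and 13.6% in monocytes. Cells with several hashtags, which were kept, made up 27.2% of the Mrc1-high and 26.2% of the MHC class II-high macrophage cluster.

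Among the types in these orders, Trem2 was highest in mononuclear phagocytes and was also found in neutrophil precursors. Microglia, outside the orders, had 943 CPM of Trem2 in WT and 4333 CPM in App NL-G-F libraries over pooled cells. MHC class II-high macrophages had 216 ± 44.8 CPM and Mrc1-high macrophages 210 ± 27.9 CPM (n = 8 each), monocytes 111 ± 35.5 CPM (n = 8) and proliferating monocyte precursors 88.4 ± 11.3 CPM (n = 7). Neutrophil precursors had 38.3 ± 7.90 CPM (n = 7) and 11.3% of the Trem2 UMIs, with a UMI in 34.6% of cells at a median of 23109 UMIs a cell. The largest cluster of that type (480 cells) also had the monocyte marker F13a1 among its leading genes. The part of monocyte-like cells in this Trem2 level was not tested. Among CD8 T cells, which should lack the gene, 0.28% held a Trem2 UMI at a median of 2866 UMIs a cell, against 49.9% of MHC class II-high macrophages at 4786. Its adaptor Tyrobp was spread far wider. Plasmacytoid dendritic cells had 4706 ± 540 CPM, monocytes 3869 ± 243 CPM, neutrophils 2897 ± 229 CPM and NK cells 2051 ± 257 CPM (n = 8 each), whereas CD8 T cells had 13.1 CPM. Trem2 was thus near 0 in several types in which Tyrobp, which also serves other receptors, was high: neutrophils had 3.58 CPM of Trem2 and plasmacytoid dendritic cells about as little.

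The products of the microglial program had different leading types outside microglia, with neutrophils leading for both Spp1 and Cd9. Cst7 was highest in mast cells (426 ± 73.0 CPM, n = 7), basophils (346 ± 58.6 CPM, n = 6), CD8 T cells (275 ± 38.6 CPM, n = 8) and neutrophil precursors (241 ± 26.9 CPM, n = 7), and macrophages lay below all of these. Lpl was highest in MHC class II-high macrophages at 76.7 ± 50.3 CPM, then in monocytes at 33.7 ± 18.9 CPM and Mrc1-high macrophages at 28.4 ± 21.9 CPM (n = 8 each). These SDs are large against the means, and the libraries are given below. Spp1 was highest in neutrophils at 64.4 ± 41.2 CPM (n = 8), which held 52.4% of its UMIs. Gpnmb hardly registered: plasma cells had 10.3 ± 5.71 CPM and monocytes 8.27 ± 8.35 CPM (n = 8 each). Plasma cells had a median of 19840 UMIs a cell and monocytes of 7380.

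Among the types in these orders, Cd9 was highest in neutrophils (546 ± 89.1 CPM, n = 8) and basophils (506 ± 155 CPM, n = 6). Type 1 conventional dendritic cells followed (267 ± 21.4 CPM, n = 8). Microglia, outside the orders, had 660 CPM of Cd9 in WT and 4555 CPM in App NL-G-F libraries over pooled cells. Cd33 had its highest level in neutrophils too, at 249 ± 49.1 CPM, and 79.0% of its UMIs were there. Mrc1-high macrophages had 99.6 ± 28.2 CPM of Cd33 and monocytes 65.6 ± 54.4 CPM (n = 8 each). Bin1 was the member with the flattest order, from B cells (172 ± 11.5 CPM) and Mrc1-high macrophages (126 ± 34.0 CPM) through most lymphocytes down to neutrophils (10.5 CPM, n = 8 each).

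Across the 206 pairs of types next to each other in these orders, no pair differed after adjustment by an exact two-sided sign-flip permutation test over libraries (smallest adjusted p = 0.161). At an unadjusted p under 0.05 there were 28 pairs, and 10 of them reached 0.0078, the smallest p that 8 libraries can give. Over 206 pairs, a single pair at that p cannot pass adjustment however large its difference, so the lack of adjusted calls does not show equal levels. Those included Apoe in Mrc1-high over MHC class II-high macrophages, Cd33 in neutrophils over Mrc1-high macrophages, Tyrobp in plasmacytoid dendritic cells over monocytes and Bin1 in B cells over Mrc1-high macrophages, each higher in 8 of 8 libraries.

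**Figure D1:**
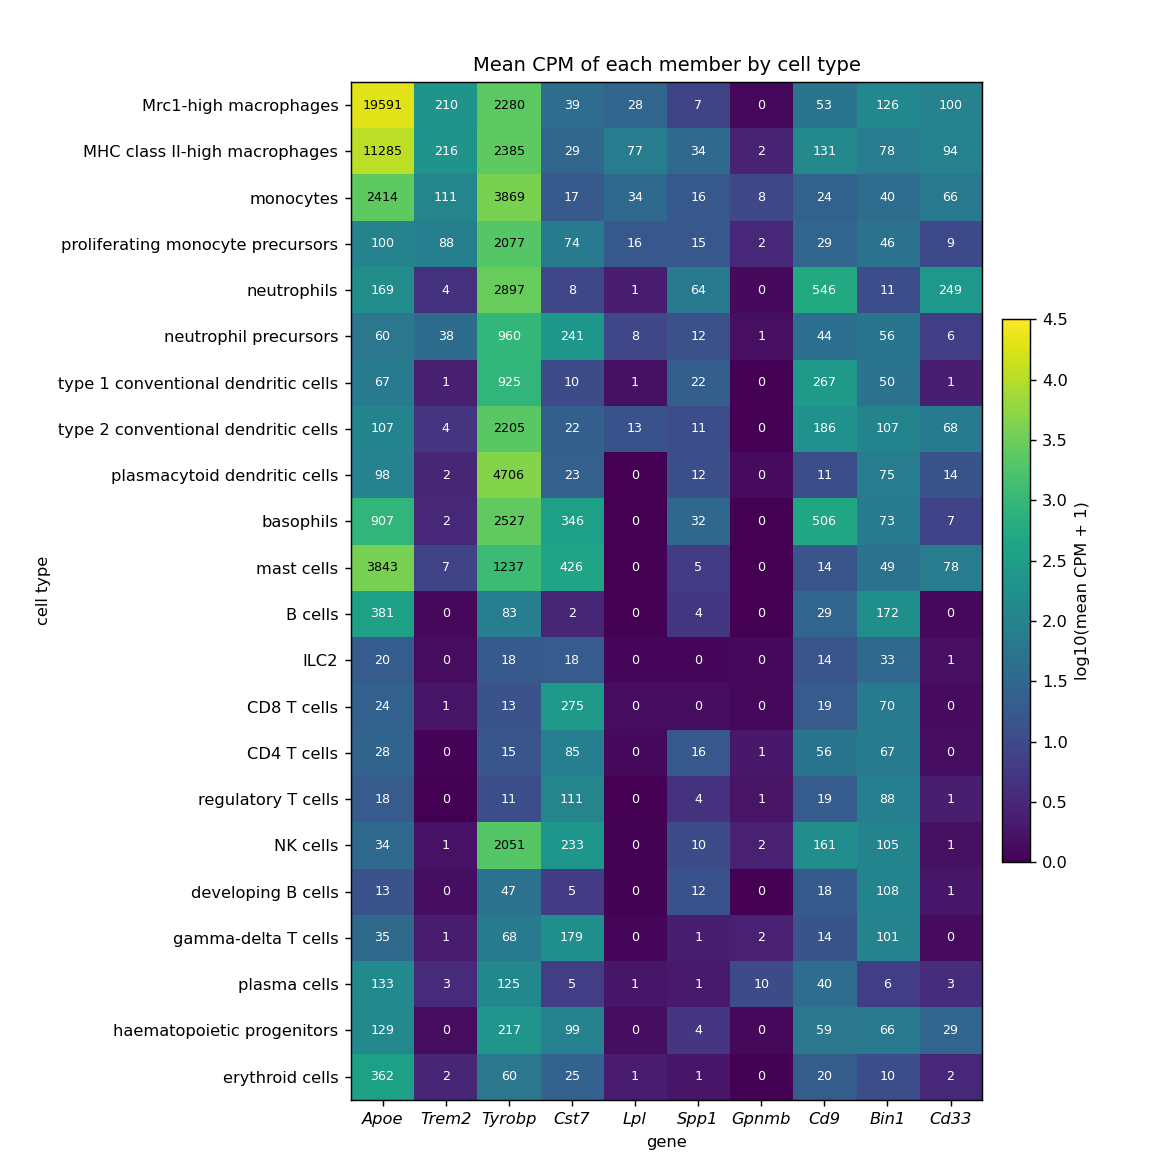
Mean CPM of each member (columns) in 22 cell types (rows), as the number in each cell and as colour on the scale log10(mean CPM + 1). Apoe is brightest in the macrophage types (19591 and 11285 CPM), Tyrobp is bright in nearly all myeloid types and in NK cells, and Gpnmb reaches only 10.3 CPM.

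Free RNA from broken cells also enters droplets, so Apoe was set beside 11 markers of border macrophages such as Mrc1, Pf4 and C1qa. In the empty droplets of the 8 libraries there were 0.827 to 1.33 Apoe UMIs for each UMI of these markers, and in the macrophage types 0.962 (Mrc1-high) and 0.859 (MHC class II-high). Neutrophils (1.25), plasma cells (1.04), CD4 T cells (1.12), CD8 T cells (1.05), ILC2 (0.898) and NK cells (1.26) had ratios of the same size. These ratios all lay within the range of the empty droplets, and whether those cells express Apoe was not tested. Monocytes (8.07), B cells (21.0), basophils (24.0), mast cells (53.0) and fibroblasts (21.9) had ratios above the range in empty droplets. Choroid plexus epithelium, 59 cells from App NL-G-F libraries, had 3215 Apoe UMIs beside 2 marker UMIs. In B cells 17.9% of cells held an Apoe UMI at a median of 2377 UMIs a cell, against 3.22% of CD8 T cells at 2866.

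**Figure D2:**
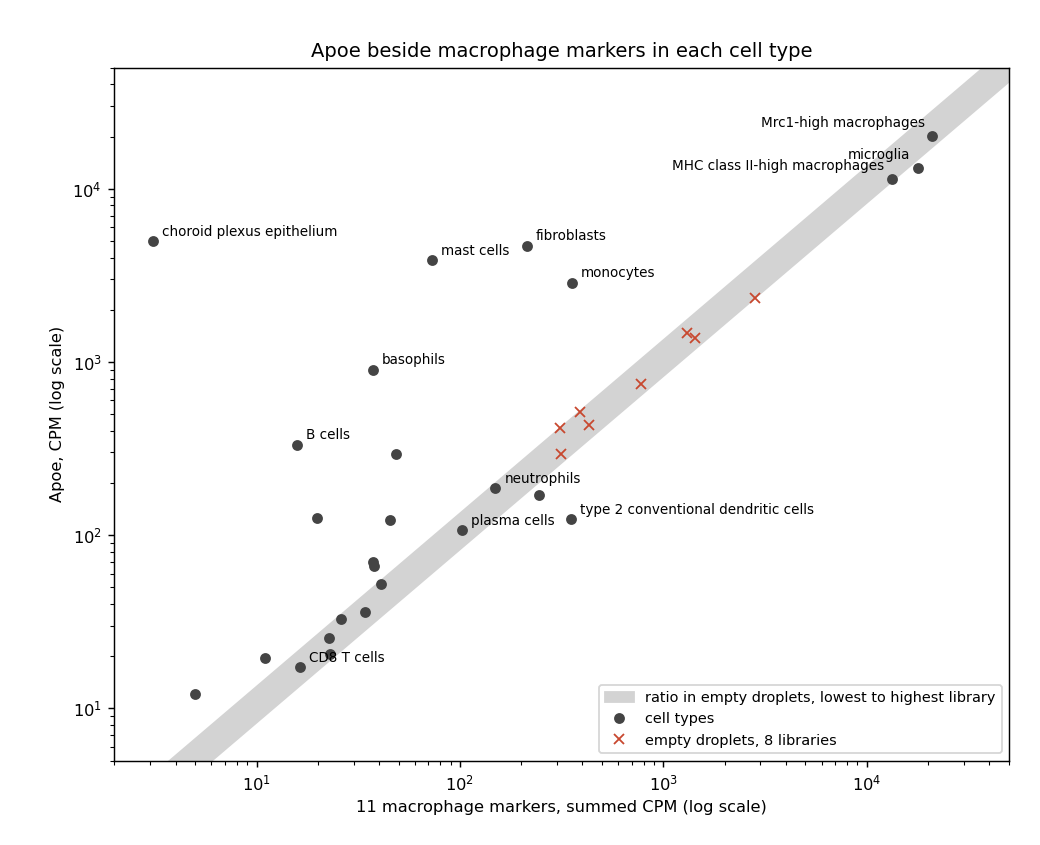
Apoe CPM (y axis, log scale) against the summed CPM of 11 macrophage markers (x axis, log scale), with 1 point a cell type, crosses for the empty droplets of the 8 libraries and a grey band for the lowest to highest ratio in empty droplets. Neutrophils, plasma cells and T cells lie in or beside the band, and B cells (21.0), basophils (24.0), mast cells (53.0) and monocytes (8.07 Apoe UMIs per marker UMI) lie above it.

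Microglia were few, 76 of the 49973 cells kept, and the reason was not tested. Sall1 was in 27.6% of the microglia against 0.0488% of macrophages, Tmem119 in 60.5% against 8.63%, and Sparc in 80.3% against 2.98%. These genes are in the marker list that named the cluster, so the shares describe it and do not check its name. They pool both genotypes. WT libraries gave 5, 3, 1 and 2 microglia and App NL-G-F libraries 24, 7, 7 and 27. The WT cells were also deeper, with a median of 6765 UMIs a cell against 2348. Of the App NL-G-F cells with a single hashtag, 60 of 62 came from the low immediate-early set, against 5 of 8 WT cells.

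Within these microglia, 4 of the 9 members with at least 20 UMIs (Trem2, Tyrobp, Lpl and Cd9) were higher in all 4 App NL-G-F libraries than in any WT library. Of all 2515 genes with at least 20 UMIs, 6.96% showed that order and 1.87% the opposite. The 20 UMIs were counted over both genotypes together, and App NL-G-F microglia held 202874 UMIs against 84829 in WT. The filter thus favours genes high in App NL-G-F cells, and Lpl, with 294 UMIs there and 0 in WT, passed it through them alone. Trem2 had 589, 2046, 1013 and 695 CPM in WT and 4055, 5029, 2824 and 4647 CPM in App NL-G-F microglia. Its lowest App NL-G-F library lay above its highest WT library. Tyrobp had 938, 3975, 1013 and 2819 CPM in WT and 6753, 9087, 4528 and 7248 CPM in App NL-G-F microglia. There the 2 ranges came close but did not overlap. Cd9 had 322, 1812, 169 and 490 CPM against 5786, 3088, 3408 and 4398 CPM.

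Lpl was the most one-sided member. None of the 11 WT microglia held an Lpl UMI, which by the floor of 3 counts allows up to 27.3% of cells with a UMI and sets no limit on cells that express the gene below detection, and the App NL-G-F libraries had 1765, 529, 1558 and 1450 CPM. Over pooled cells the App NL-G-F level was at least 41.0-fold higher than 3 UMIs in all WT microglia would be (35.4 CPM). Although the App NL-G-F cells were shallower, 51 of 65 (78.5%) held an Lpl UMI, and 59.0% did when each cell was thinned to 1000 UMIs (62 of 65 cells were deep enough). CD8 T cells, as a type that should lack Lpl, had a UMI in 0.084% of cells.

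Exact two-sided permutation tests of the mean CPM, 4 against 4 libraries, gave p = 0.0286 for Trem2, Tyrobp, Lpl and Cd9, the smallest such a design allows, and 0.0714 after adjustment over the 10 members. No member therefore passed 0.05 after adjustment. Cst7 had 26.8, 58.5, 675 and 40.9 CPM in WT and 1154, 2161, 390 and 3306 CPM in App NL-G-F microglia, and the WT chronic colitis library, 1 cell with 4 UMIs, was above the App NL-G-F chronic colitis library (exact permutation p = 0.0571). Apoe had 3992, 1052, 0 and 12789 CPM in WT and 30201, 8778, 8959 and 11259 CPM in App NL-G-F microglia, so its groups overlapped (exact permutation p = 0.114).

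Single cells differed widely in Apoe and Cst7. Among the 65 App NL-G-F microglia, 36 held at least 20 Apoe UMIs, 17 held none and the highest held 556. Trem2 was in 64 of these cells, Tyrobp in 63, Cd9 in 62 and Cst7 in 35. All 35 Cst7+ cells had Trem2 and Cd9, and 32 of them had Lpl. Nearly all App NL-G-F microglia thus held the receptor, its adaptor and Cd9, while Cst7 was in part of them. Of the 11 WT cells, which were deeper, 11 held Trem2, 11 Tyrobp, 9 Cd9 and 4 Cst7. With cells thinned to 1000 UMIs, WT and App NL-G-F shares were 58.5% and 93.7% for Trem2 and 77.5% and 91.6% for Tyrobp. For Cd9 they were 36.9% and 90.7%, and for Cst7 7.82% and 40.2%. The raw shares thus do not show the genotypes to be alike. Of the WT microglia, 4 of 11 held any Apoe UMI, and 313 and 148 of the 480 Apoe UMIs were in 2 cells.

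Spp1 and Gpnmb did not mark these microglia. A single WT control cell held 30 Spp1 UMIs (804 CPM for that library), all other WT libraries had 0, and the App NL-G-F libraries had 50.9, 0, 0 and 59.6 CPM. Gpnmb had 1 UMI among all WT microglia and 5 among those of App NL-G-F mice. The risk genes Bin1 (WT 163 to 643 CPM, App NL-G-F 397 to 573 CPM) and Cd33 (WT 163 to 322 CPM, App NL-G-F 88.2 to 195 CPM) overlapped between genotypes (exact permutation p = 0.286 and 0.114).

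**Figure D3:**
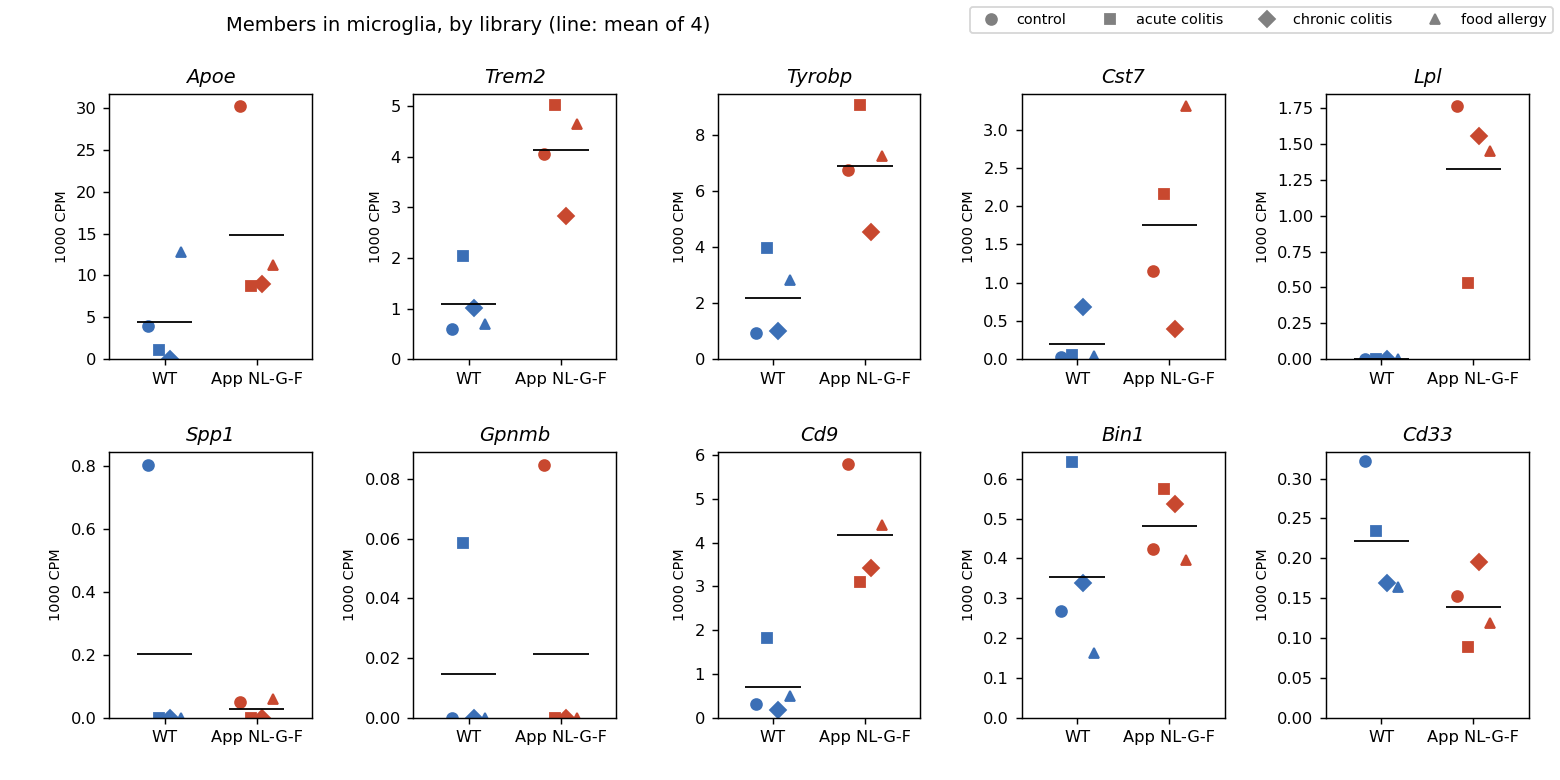
CPM of each member in microglia (y axis, in units of 1000 CPM, a scale of its own in each panel), with 1 point a library, WT in blue and App NL-G-F in red, symbols for the treatments and lines for the mean of 4 libraries. Trem2, Tyrobp, Cd9 and Lpl do not overlap between genotypes, and Lpl is 0 in all 4 WT libraries.

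Other genes of the microglial program were read the same way. Of 23 other disease-associated microglia genes, 21 passed 20 UMIs and 14 were higher in all App NL-G-F than in all WT libraries (Axl, Ccl6, Cd63, Cd68, Ctsb, Ctsd, Ctsl, Ctsz, Fth1, Gusb, Hif1a, Igf1, Lilrb4a and Timp2). Clec7a, another gene of that list, was not found by symbol among the 32285 genes, so it could not be read. Igf1, a growth factor, was at 0 in WT microglia and had 218 to 713 CPM in App NL-G-F microglia, through which alone it passed 20 UMIs. Cd68, a lysosomal protein of phagocytes, had 338 to 585 CPM in WT and 1985 to 3173 CPM in App NL-G-F microglia. None of 12 homeostatic genes was apart in either direction. P2ry12, a purine receptor, had 409 to 2195 CPM in WT and 485 to 1152 CPM in App NL-G-F, and Tmem119 had 490 to 1857 CPM and 195 to 894 CPM. The median App NL-G-F minus WT difference of log2 CPM was 1.73 for the members, 2.18 for the other disease-associated genes and 0.27 for the homeostatic genes, beside 0.10 over all genes. Immediate-early genes had -1.72.

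Markers of other cells differed between the genotypes in the same microglia. B cell markers summed to 7026 CPM in WT and 340 CPM in App NL-G-F microglia (1 and 4 of 9 markers at 0), CD4 T cell markers to 1332 and 246 CPM (1 and 3 of 9 at 0), and neutrophil markers to 58.9 and 7547 CPM (6 and 0 of 9 at 0). Neuron markers were at 0 in both. Left to microglia with under 3 UMIs of each of these 3 lists, the data held 1 WT and 47 App NL-G-F cells: 36 of the 47 had Lpl, 46 Trem2 and 44 Cd9, and the WT cell had 6 Trem2 UMIs and none of Apoe, Lpl, Cst7 or Cd9. In low-set hashtag groups alone, 5 WT cells held 1 Apoe UMI and no Lpl UMI, and 60 App NL-G-F cells held 3046 and 283. Trem2 was then 650 to 1013 CPM in 3 WT and 2824 to 5740 CPM in 4 App NL-G-F libraries. These 2 subsets were chosen after seeing the data.

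Outside microglia, 15 types had at least 20 cells in every library, and edgeR's quasi-likelihood test was fitted to the summed UMIs of each with terms for treatment and genotype. Members passed the filter on low counts in 93 of 150 possible combinations of gene and type: Apoe, Tyrobp and Bin1 in 15 types each, Cst7 in 14, Cd9 in 13, Spp1 in 8, Cd33 in 5, Trem2 in 4, Lpl in 3 and Gpnmb in 1. Each treatment is 1 WT and 1 App NL-G-F library, so no condition was repeated. The fit takes a treatment effect as shared by the genotypes and the genotype effect as shared by the treatments. The spread behind the p-values is the departure of the pooled libraries from these shared effects, not a spread between repeats of a condition. The 3 treatment comparisons share their 2 control libraries.

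Between genotypes, 1 of 93 tests was called (1.08%, beside 0.181% of all 117416 tests of genes and types), with 19 at an unadjusted p under 0.05 and 3 called by DESeq2. The called test was Apoe in type 2 conventional dendritic cells, where WT libraries had 111, 122, 182 and 282 CPM and App NL-G-F libraries 52.1, 29.8, 17.3 and 57.6 CPM. Every App NL-G-F library lay below every WT library, and Apoe fell by 2.01 ± 0.25 on the log2 scale (SE; edgeR adjusted p = 0.00981, where 0.101% of genes in these cells were called). These dendritic cells had 0.352 Apoe UMIs per macrophage marker UMI, under the ratio in empty droplets. Empty droplets had 432 to 2345 CPM of Apoe in WT and 296 to 750 CPM in App NL-G-F libraries, and the call was lost when a 5% ambient share was subtracted. Macrophage markers in these cells had 411, 232, 450 and 464 CPM in WT and 655, 227, 166 and 132 CPM in App NL-G-F libraries, and their part was not tested. It was lost under 6 of 16 alternatives, among them without the WT or the App NL-G-F acute colitis library.

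In CD4 T cells (log2 difference -1.38), CD8 T cells (-1.46), NK cells (-1.003), ILC2 (-0.82), neutrophils (-1.91) and plasma cells (-1.23), whose ratio to macrophage markers lay within that of empty droplets, Apoe had negative log2 differences at an unadjusted p under 0.05. None passed adjustment (edgeR adjusted p 0.080 to 0.64). Plasmacytoid dendritic cells had a positive difference (1.25, edgeR adjusted p = 0.698). In the types with the highest Apoe the mean levels of the genotypes lay close: Mrc1-high macrophages had 19345 CPM in WT and 19838 CPM in App NL-G-F libraries, and MHC class II-high macrophages had 11299 and 11271 CPM.

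Trem2, whose level separated the microglia, had 204 and 215 CPM in WT and App NL-G-F Mrc1-high macrophages and 213 and 220 CPM in MHC class II-high macrophages, and neither was called. Lpl in MHC class II-high macrophages had 10.8, 89.2, 37.2 and 54.9 CPM in WT and 66.9, 118, 173 and 64.1 CPM in App NL-G-F libraries. App NL-G-F was higher under each treatment, with a log2 difference of 1.04 ± 0.31 that did not pass (edgeR adjusted p = 0.404). Spp1 in neutrophils had 123, 60.2, 88.2 and 112 CPM in WT and 51.9, 2.99, 27.7 and 48.0 CPM in App NL-G-F libraries (log2 difference -1.81 ± 0.44, edgeR adjusted p = 0.571). WT was higher in all 4 treatments. The immediate-early sets of these neutrophils are compared further below.

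Acute colitis against control gave 5 calls of 93 (5.38%, beside 0.444% of all tests), 2 higher and 3 lower, with 26 at an unadjusted p under 0.05 and 3 by DESeq2. Chronic colitis gave 6 (6.45%, beside 0.432%), 2 higher and 4 lower, with 20 at an unadjusted p under 0.05 and 5 by DESeq2. Food allergy gave 2 (2.15%, beside 0.227%), both lower, with 21 at an unadjusted p under 0.05 and 1 by DESeq2. Monocytes held 6 of these 13 calls.

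In chronic colitis monocytes had less Apoe and Cd33 and more Lpl than in controls. Apoe had 5270, 2426, 717 and 2288 CPM in WT and 2773, 2480, 671 and 2687 CPM in App NL-G-F monocytes. Both chronic colitis libraries were the lowest of their genotype by a wide margin, and Apoe fell there by 2.59 ± 0.26 on the log2 scale (SE, 6.01-fold; edgeR adjusted p = 0.000617). An Apoe UMI was in 46.0% of 176 WT and 49.1% of 108 App NL-G-F chronic colitis monocytes, against 88.2% and 72.4% in controls, at medians of 6745.5 to 7712 UMIs a cell. In acute colitis and food allergy the log2 differences of -0.76 and -0.66 did not pass (edgeR adjusted p = 0.227 and 0.672).

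Cd33 had 184, 51.0, 21.2 and 53.1 CPM in WT and 106, 39.0, 28.3 and 41.9 CPM in App NL-G-F monocytes. Controls were the highest of both genotypes, and Cd33 fell in acute colitis (log2 -1.76 ± 0.26, edgeR adjusted p = 0.00962), in chronic colitis (-2.66 ± 0.26, 0.000617) and in food allergy (-1.60 ± 0.23, 0.0263). Cd33 UMIs were in 67.6% of WT control monocytes and 13.1% of WT chronic colitis monocytes. Apoe and Cd33 in chronic colitis were called under all 15 alternatives in which they could be fitted. Cd33 in acute colitis was not called without the WT control or the WT acute colitis library, and in food allergy without the WT control or either food allergy library.

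Lpl went the other way, with 6.58, 45.4, 41.0 and 23.2 CPM in WT and 18.8, 64.2, 47.7 and 22.7 CPM in App NL-G-F monocytes. It rose in acute colitis (log2 2.12 ± 0.37, edgeR adjusted p = 0.0196) and in chronic colitis (1.85 ± 0.34, 0.0176), and food allergy did not pass (1.04, edgeR adjusted p = 0.628). Both calls were lost without the WT control library, where the lowest value stood on 18 UMIs, and without the matching WT colitis library, and the acute colitis call also without the App NL-G-F acute colitis library. Trem2 had 177, 58.1, 120 and 133 CPM in WT and 114, 77.9, 106 and 106 CPM in App NL-G-F monocytes, and its acute colitis difference of -1.20 ± 0.25 missed the threshold (edgeR adjusted p = 0.0514). Tyrobp stayed between 3414 and 4251 CPM in all 8 libraries.

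**Figure D4:**
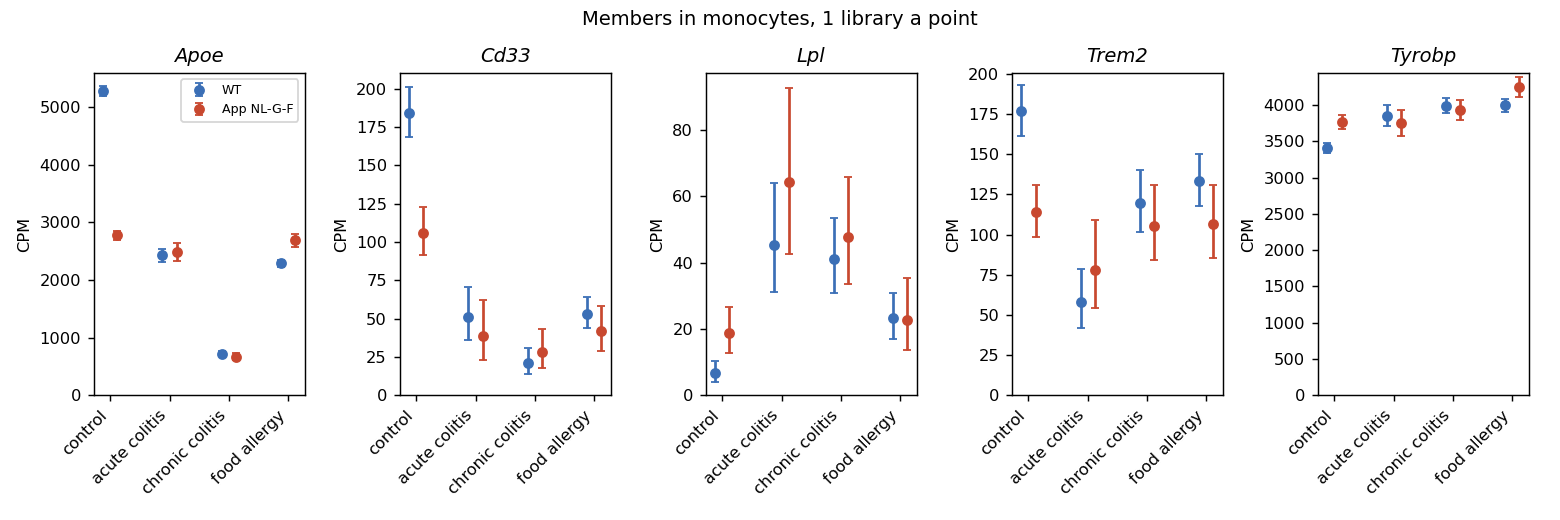
CPM of 5 members in monocytes (y axis, from 0) by treatment, with 1 point a library, WT in blue and App NL-G-F in red, and bars for exact 95% Poisson intervals, which cover counting error only. Apoe and Cd33 are lowest in chronic colitis (671 and 717 CPM of Apoe), Lpl is lowest in controls, and Tyrobp spans 3414 to 4251 CPM.

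The monocytes themselves differed between treatments. Macrophage markers had 537, 258, 69.8 and 464 CPM in WT and 418, 264, 103 and 184 CPM in App NL-G-F monocytes, and monocyte markers such as Ly6c2 and Ccr2 had 6066, 5809, 8907 and 6048 CPM and 6223, 6067, 6977 and 6735 CPM. Macrophage markers were thus also lowest in chronic colitis. Immediate-early genes had 14073, 9039, 4055 and 10645 CPM in WT and 9038, 6415, 6814 and 8943 CPM in App NL-G-F monocytes. The part of either in the result was not tested. Within high-set hashtag groups alone Apoe fell in chronic colitis by 2.59 on the log2 scale (edgeR adjusted p = 0.00029), from 3460 to 5584 CPM in 4 control groups to 420 to 1327 CPM in 4 chronic colitis groups. The only low-set group with enough monocytes, in the App NL-G-F control library, had 151 CPM. All 194 genes called in chronic colitis monocytes make 2.59% of 7495 tested, 30 higher and 164 lower, and the 9 members tested had 3 calls. In acute colitis 1.11% and in food allergy 0.147% of genes were called.

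Other genes of the program moved in these monocytes. Of 18 other disease-associated genes tested, chronic colitis lowered Ctsl (log2 -2.17), Ctsd (-0.96) and Hif1a (-1.35) and raised Fabp5 (1.14), a fatty acid binding protein. Ctsl and Ctsd encode lysosomal cathepsins, and Ctsl also fell in acute colitis (-2.34). Among 16 tested partners of TREM2 and TYROBP, the activating receptor Trem1 fell in acute (-2.59) and chronic colitis (-2.36) and Sirpb1a in chronic colitis (-1.84). Siglece, a sialic acid receptor related to Cd33, fell in chronic colitis (-1.37), as did Picalm (-1.15), a clathrin adaptor at a human risk locus. Apoc2, an apolipoprotein that activates LPL, fell in acute colitis (-1.26). The median log2 difference in chronic colitis was -0.11 over the members, -0.23 over the other disease-associated genes and 0.00 over all genes tested.

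In B cells Apoe had 525, 269, 171 and 473 CPM in WT and 507, 247, 169 and 688 CPM in App NL-G-F libraries. Chronic colitis libraries were the lowest of both genotypes and the genotypes ran nearly side by side, and Apoe fell in chronic colitis by 1.58 ± 0.15 on the log2 scale (SE; edgeR adjusted p = 0.0019, where 0.733% of all genes in B cells were called). The acute colitis difference of -0.95 ± 0.15 did not pass (edgeR adjusted p = 0.12). Macrophage markers in B cells stayed between 7.78 and 29.9 CPM. Among the lists, Grn (progranulin, log2 0.94) and Cd36 (a fatty acid receptor, 1.44) rose in chronic colitis B cells, and Abca1 (a cholesterol exporter, -0.88) and Rin3 (a risk gene and partner of BIN1, -0.71) fell.

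The hashtag groups show where the B cell result sits. High-set groups had 53.5 to 186 CPM of Apoe in the 4 chronic colitis groups and 265 to 717 CPM in the 4 control groups. The 2 low-set chronic colitis groups with enough B cells, both App NL-G-F, had 506 and 1123 CPM, and low-set controls had 275 to 926 CPM. Fitted to low-set groups alone, the chronic colitis difference was 0.32 and not called. In the App NL-G-F libraries of both colitis arms and of food allergy, every low-set group was above every high-set group of the same library. Over all groups Apoe in B cells was 672 ± 307 CPM in 11 low-set and 301 ± 232 CPM in 16 high-set groups. The sets were found from the data and were not compared by a test.

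Spp1 in neutrophils, a secreted glycoprotein that binds CD44 and integrins, was split by the same sets. High-set groups had 83.8 ± 31.9 CPM (SD, n = 16 groups, 41.7 to 151) and low-set groups 3.50 ± 2.94 CPM (n = 7, 0 to 6.87), with no overlap. All 7 low-set groups with enough neutrophils were App NL-G-F. The App acute colitis library, at 2.99 CPM, drew most of its neutrophils from a low-set group. No WT low-set group had enough neutrophils. Within App NL-G-F mice the high-set groups had 41.7 to 105 CPM, above every low-set group, and within the high set WT groups had 42.6 to 151 CPM, which overlapped the App NL-G-F groups. Cd33 leaned the other way, with 349 ± 66.7 CPM in low-set and 263 ± 57.0 CPM in high-set neutrophils, and these ranges overlapped.

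**Figure D5:**
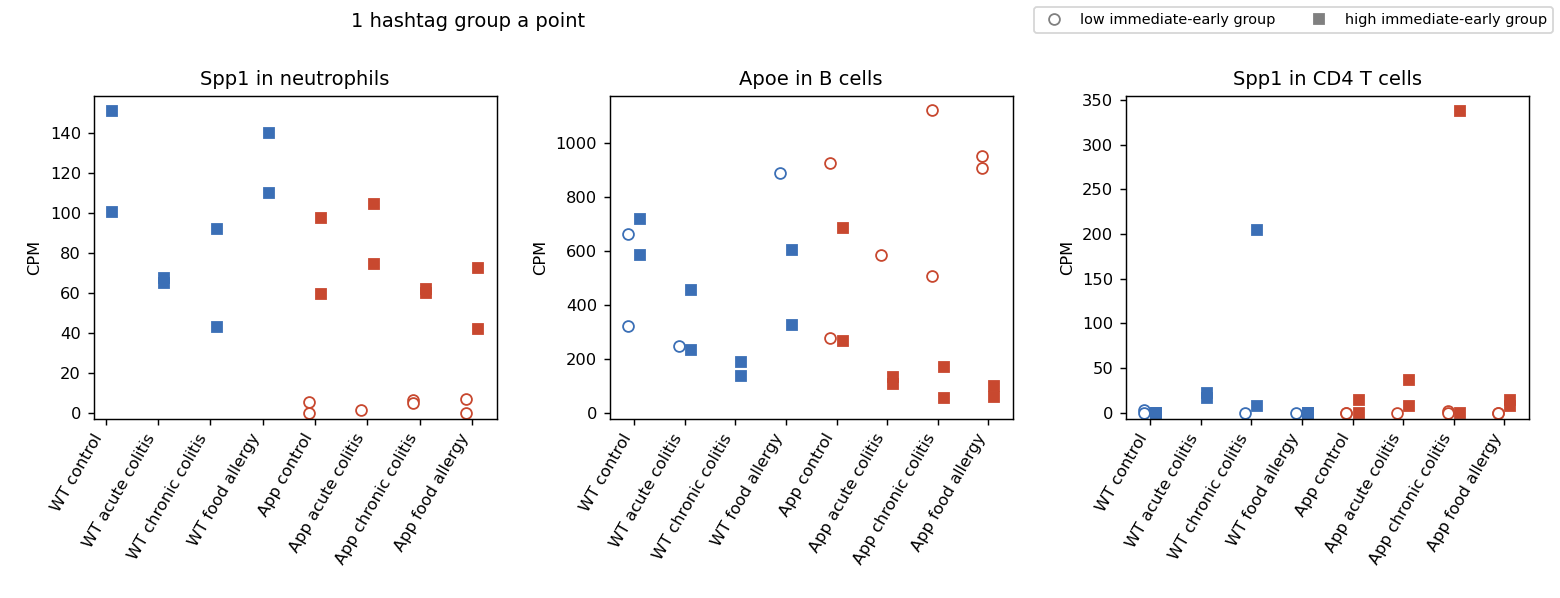
CPM (y axis) of Spp1 in neutrophils, Apoe in B cells and Spp1 in CD4 T cells by library (x axis), with 1 point a hashtag group, WT in blue, App NL-G-F in red, open circles for the low and filled squares for the high immediate-early set. Low-set neutrophils lie at 0 to 6.87 CPM of Spp1, and single chronic colitis groups stand out at 204 and 338 CPM in CD4 T cells.

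Spp1 rose in CD4 T cells in chronic colitis (log2 4.54 ± 0.54, edgeR adjusted p = 0.00705, where 0.0246% of genes were called), from 0.94, 16.5, 56.8 and 0 CPM in WT and 2.79, 9.90, 40.3 and 3.41 CPM in App NL-G-F libraries. Both chronic colitis libraries were the highest of their genotype. The UMIs came from few cells, since 19 of 3051 CD4 T cells (0.623%) held any of the 119 Spp1 UMIs. A single hashtag group of each chronic colitis library held nearly all of them: 27 of 28 UMIs of the WT library (204 CPM) and 53 of 55 UMIs of the App NL-G-F library (338 CPM). The call was lost without the WT control or the WT chronic colitis library. CD8 T cells had a Spp1 UMI in 0.084% of cells.

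The remaining calls were in γδ T cells and dendritic cells. Cst7 in γδ T cells had 290, 136, 152 and 142 CPM in WT and 229, 141, 169 and 172 CPM in App NL-G-F libraries. Both controls were above all treated libraries, and Cst7 fell in acute colitis (log2 -0.92 ± 0.17, edgeR adjusted p = 0.0128), chronic colitis (-0.74 ± 0.16, 0.032) and food allergy (-0.74 ± 0.16, 0.0313). Of all genes in γδ T cells, 0.951%, 1.18% and 1.21% were called in these comparisons. All 3 calls were lost without the WT control library and under DESeq2, and in all they were lost under 4, 8 and 9 of 15 alternatives. CD8 T cells and NK cells, which hold as much Cst7, had log2 differences of -0.12 to 0.24 in these comparisons (edgeR adjusted p of 0.904 and above). Tyrobp in γδ T cells rose in acute colitis (1.73 ± 0.37, edgeR adjusted p = 0.0389), with 67.9 CPM in the WT and 183 CPM in the App NL-G-F library against 40.0 and 26.7 CPM in controls. NK cell markers in these γδ T cells were 96.1 and 276 CPM against 96.6 and 184 CPM, and neutrophil markers 107 and 298 CPM against 9.29 and 100.03 CPM. Lyz2, a lysozyme of myeloid cells, rose there too (2.46), and the part of other cells' RNA was not tested. Tyrobp lost its call under 7 of 14 alternatives, among them without the App NL-G-F acute colitis library, the App NL-G-F control library or either chronic colitis library. Cst7 fell in acute colitis in type 2 conventional dendritic cells (-2.18 ± 0.43, edgeR adjusted p = 0.0246, where 1.15% of genes were called), from 32.9 and 41.7 CPM to 4.31 and 13.3 CPM, on 5 and 8 UMIs in the acute libraries, and the call was lost under DESeq2 and without any of the 4 control and acute colitis libraries.

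In both macrophage types no member passed adjustment in any comparison, and the smallest edgeR adjusted p was that of Lpl in acute colitis. Lpl varied widely in both, with values in MHC class II-high macrophages given above and 8.97, 68.9, 13.8 and 38.8 CPM in WT and 8.87, 41.4, 37.9 and 8.95 CPM in App NL-G-F Mrc1-high macrophages. Acute colitis libraries were the highest of both genotypes, and the log2 difference of 2.61 ± 0.60 did not pass (edgeR adjusted p = 0.142). The same comparison in MHC class II-high macrophages gave 1.57 ± 0.43 (edgeR adjusted p = 0.181). Cd9 in MHC class II-high macrophages had 101, 95.8, 98.3 and 136 CPM in WT and 73.7, 211, 216 and 113 CPM in App NL-G-F libraries, with no call. Siglech, a sialic acid receptor that pairs with TYROBP, rose in acute colitis in Mrc1-high macrophages (3.27), and Ccl6, a chemokine of the microglial program, fell in both macrophage types (-1.99 and -1.01).

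Over the 15 types, the other lists were set beside the shares of all tests given above (0.181% for genotype, 0.444% for acute and 0.432% for chronic colitis, 0.227% for food allergy). Of 257 tests of other disease-associated genes, 1 was called between genotypes (lower, 0.389%), 10 in acute colitis (4 higher, 3.89%), 7 in chronic colitis (2 higher, 2.72%) and 4 in food allergy (2 higher, 1.56%). Homeostatic microglia genes had 5 calls of 66 tests in acute colitis (3 higher, 7.58%). The gene called between genotypes was Lyz2 in γδ T cells (-1.38). Hif1a, a transcription factor of low oxygen, fell in ILC2 in all 3 treatments (-0.90, -1.20 and -1.19). Of 246 tests of other risk gene orthologues, 2 were called in acute (0.813%) and 3 in chronic colitis (1.22%). Partners of TREM2 and TYROBP had 4 calls of 174 tests in acute colitis (1 higher, 2.299%) and 2 in chronic colitis (both lower), lipid-handling genes 3 and 4 of 153 (1 and 2 higher), Siglecs and their phosphatases 3 and 1 of 53 (1 and 0 higher, 5.66% and 1.89%), partners of BIN1 2 and 3 of 147 (all lower), and osteopontin receptors, tetraspanins and cathepsin partners 2 and 1 of 196 (all lower). Immediate-early genes, in contrast, were lower in App NL-G-F libraries in 32 of 149 tests (21.5%). The same genes had split the hashtag groups into the low and high sets, which were unevenly spread over the libraries. In acute colitis the low-set groups held 121 and 53 cells in the WT library and 3661 in the App NL-G-F library. In controls they held 861 and 2053 cells in WT and 1605 and 1693 in App NL-G-F. The part of the sets in these calls was not tested. Some genes are in several lists, so the counts are not independent. Siglech in acute colitis, higher in Mrc1-high macrophages and lower in type 1 conventional dendritic cells, counts among homeostatic genes, TREM2 and TYROBP partners and Siglecs.

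The genes whose levels across the 22 types were most like each member were found among 6770 genes by Pearson correlation of mean log2(CPM + 10), as a description over types that share libraries. Trem2 was most like Lpl (r = 0.94), then Csf1r, the receptor for macrophage growth factors (0.94). Lpl was in turn most like Fcgr1 (0.96), an antibody receptor, and like Lrp1 (0.94), a receptor for lipoproteins. Tyrobp was most like Fcer1g (0.96), an adaptor with the same kind of signalling motif. Cd33 was most like Pilrb2 (0.91) and Pfkfb4 (0.90), Bin1 like Cybc1 (0.88), Apoe like Renbp (0.84), Cst7 like Paqr7 (0.83), Spp1 like Anxa1 (0.79), Cd9 like Apobr (0.79) and Gpnmb like the immunoglobulin gene Ighg1 (0.73). Among the members themselves, Spp1 and Cd9 had r = 0.76, Apoe and Trem2 0.69, and Cst7 lay near 0 with Apoe (-0.01), Trem2 (-0.05) and Tyrobp (0.00).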

How the data were processed

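Single cells in 8 libraries, 1 for each combination of genotype and treatment, had been sequenced by 5′ droplet RNA-seq with hashtag antibodies. The authors deposited unfiltered matrices of UMI counts made against mm10 (GRCm38), with Cell Ranger 6.1.2 named in the submitters' processing notes while the matrix headers name version 4. Barcodes were called as cells by an order-of-magnitude cutoff (3000 expected cells) or by a test of barcodes with at least 500 UMIs against empty droplets (ranks 45000 to 90000, 1000 simulations, false discovery rate 0.01), and needed 200 genes and at most 5% mitochondrial UMIs. Counts were clustered (scanpy 1.11.5, 2000 variable genes without the members, 30 components, 20 neighbours, Leiden resolution 0.5; 54 clusters), and cells of named clusters needed 2 markers. Clusters with over 50% of cells of several hashtags stayed unnamed as doublets, other such cells were kept, and no doublet caller was run.

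Counts were summed per type and library. In 15 types with at least 20 cells in every library, edgeR 4.0.16 (quasi-likelihood test, terms for treatment and genotype, 3 residual degrees of freedom, Benjamini-Hochberg over all genes of a type, adjusted p under 0.05) was the test and DESeq2 1.42.0 (R 4.3.3) an alternative. In simulated counts with 200 genes changed between genotypes, 2-fold changes were recovered for 100% in B cells (9419 genes), 92% in MHC class II-high macrophages (6076) and 99.5% in monocytes (7495). Unchanged genes were called there too, 15, 9 and 15 in that order, and 4, 1 and 1 were called when no gene was changed. The changed genes were all above 50 CPM, so recovery at lower levels and in the treatment comparisons was not simulated. Neighbouring types were compared by exact sign-flip tests of log2(CPM + 10) and microglia by exact permutation of 4 against 4 libraries, both two-sided. Intervals are exact 95% intervals, and intervals and floors (3 counts) cover counting error only. Ages are as labelled, and the labels do not tie hashtags to mice. The members and the gene lists were chosen with earlier results of these data known. Named were the members, the 3 genes most like each (of those at 50 CPM or more in a type; some are not reported here), and genes of the lists that were called. Other alternatives were no filter on low counts, no marker gate, cells of several hashtags left out, the cutoff alone, 5% ambient UMIs subtracted, either immediate-early set alone, no treatment term and each library left out. For microglia, 2 subsets were added after seeing the data.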

Additional observations from a re-analysis of the deposited data

Results flagged for a closer look

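Among 56 groups of 4 libraries (a member in a cell type and genotype), 8 held a library far from its others by Dixon's criterion, which chance passes in about 1 in 20 groups. Cd9 in neutrophils was 483 CPM in the WT chronic colitis library against 624 to 635 CPM in the others. Apoe in monocytes was 671 CPM in the App NL-G-F chronic colitis library against 2480 to 2773 CPM. Cst7 in γδ T cells was 290 CPM in the WT control library against 136 to 152 CPM. The other 5 lay in microglia, where a library can be a few cells. Apoe was 30201 CPM in the App NL-G-F control library (24 cells) against 8778 to 11259 CPM, and Cst7 was 675 CPM in the single cell of the WT chronic colitis library against 26.8 to 58.5 CPM. Spp1 was 804 CPM in the WT control library, from 1 cell, with 0 in the other WT libraries. Gpnmb was 58.5 CPM in the WT acute colitis library (1 UMI) and 84.8 CPM in the App NL-G-F control library (5 UMIs), with 0 in the others of each genotype.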

How the results depend on the processing

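Calls of members moved with several settings, for which the cause was not tested. Between genotypes (1 call) there were 3 with DESeq2, 13 with no filter on low counts, and 0 without the treatment term, without cells of several hashtags, in low or in high immediate-early groups, or after ambient subtraction. Acute colitis (5 calls) had 3 with DESeq2, 16 with no filter, 0 in low groups and 3 after ambient subtraction. Chronic colitis (6) had 12 with no filter and 0 in low groups. Food allergy (2) had 1 with DESeq2, 11 with no filter, 1 without the marker gate, 0 in low and 4 in high groups. Fewer cells and types could be fitted in low groups. With each library left out in turn, calls ranged from 1 to 3 between genotypes, 1 to 6 in acute colitis (1 without the WT control library), 3 to 9 in chronic colitis (3 without the WT control or the WT chronic colitis library) and 0 to 6 in food allergy (0 without the WT control library or either food allergy library, 6 without the App NL-G-F control library). Of 95 refits of named calls under other settings, 80 were still called, 14 were not, and Apoe in chronic colitis B cells turned to 0.32 in low groups. Of 112 refits without 1 library, 73 were still called and 39 were not.

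Highest levels moved by more than their SD for Apoe in Mrc1-high macrophages (16736 CPM with the cutoff alone, 26980 without cells of several hashtags, 26561 in high groups), Cst7 in mast cells (341 with the cutoff alone) and Bin1 in B cells (132 with the cutoff alone, 183 in low groups). In low groups neutrophils had 4.28 CPM of Spp1, 453 of Cd9 and 325 of Cd33. In microglia the App NL-G-F minus WT difference turned sign for Spp1 (27.6 CPM without the WT control library, 28.1 without cells with other types' markers), Gpnmb (-14.6 without the App NL-G-F control library, up to 21.2 without others) and Bin1 (-365 without cells with other types' markers, 1 WT cell). Without 1 library at a time, differences in CPM ranged from 5207 to 13118 for Apoe, 2756 to 3491 for Trem2, 3990 to 5510 for Tyrobp, 1035 to 2007 for Cst7, 1179 to 1591 for Lpl, 2933 to 3843 for Cd9, 66.4 to 226 for Bin1, -103 to -50.0 for Cd33 and -240.3 to 27.6 for Spp1. No paired analysis was possible because replicate numbers pair nothing here, as each combination of genotype and treatment is 1 library. The treatment term already sets the WT and App NL-G-F libraries of a treatment against each other. The 11 WT microglia limit what could be detected there.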
